A study of Mus musculus with 18 samples.

Results

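Genes used as markers of the pyramidal cell fields of the hippocampus, 10 in number, were followed in mouse brain tissue in 3 states: fresh, snap-frozen or vitrified. They were taken by symbol, as Fibcd1, Spink8, Wfs1 and Pou3f1 (CA1), Bok, Hs3st4, Iyd and Nptx1 (CA3), and Zbtb20 and Cpne7, which are not assigned here to 1 field. All 10 were found among the 18235 genes listed for both tissues. The study sequenced poly(A) RNA of hippocampus and cerebral cortex, each state with 3 libraries, 18 libraries in all. Fresh tissue had no treatment. Snap-frozen tissue was put directly into liquid nitrogen. Vitrified tissue was loaded stepwise with ethylene glycol, dimethyl sulfoxide (DMSO) and sucrose in phosphate-buffered saline, cooled in liquid nitrogen, stored in a deep freezer, rewarmed and unloaded stepwise. Vitrification is cooling to a glass without ice crystals. The strain, age and sex of the mice and the number of animals stand in no source used here. The p-values therefore reflect the spread among libraries alone, and that spread may be technical.

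The hippocampus is built of the CA fields, rows of glutamatergic pyramidal neurons, and the dentate gyrus, made of granule neurons. Granule axons reach CA3, CA3 axons reach CA1, and CA1 is a main output of the hippocampus. Neurons of each field keep their own set of transcription factors, surface proteins and enzymes, which is why such genes serve as field markers in mouse atlases. Most of these markers are also made by some neurons elsewhere: Wfs1 and Pou3f1, for example, are known from upper layers of the cortex.

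Counts summed to 15725356 to 17480302 per library, and 16268 to 16590 of the shared genes had counts. Levels below are counts relative to the library size (CPM) on 1 scale over the 18 libraries. Libraries of a group were alike, with a common coefficient of variation beyond counting noise of 1.69% in hippocampus and 2.71% in cortex, so small differences passed the test. In cortex, the third snap-frozen replicate was unlike its group: its pairs with replicates 1 and 2 gave a chi-square per degree of freedom of 3.89 and 3.57, against 1.22 to 1.6 for the other replicate pairs. On the first principal component, with 68.2% of the variance of hippocampus, the snap-frozen libraries stood apart from the rest. They also held thalamic transcripts, described beside the results they touch. The cortex libraries held transcripts of striatum, with a summed level of 11 striatal markers of 2099 to 2120 CPM in fresh cortex against 240.7 to 246 CPM in fresh hippocampus.

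Promoter sequence was at hand for 6 of the 10 genes (RefSeq, GRCm38.p6). The 250 bases before the annotated start are printed 5′ to 3′ on the gene's strand for 3 genes with different behaviour below: Fibcd1 and Zbtb20, whose levels fell after both treatments of hippocampus, and Iyd, whose level passed the test against fresh hippocampus after neither. Capitals mark matches to the motifs searched.
Fibcd1 (chr2:31846006-31846255, minus strand): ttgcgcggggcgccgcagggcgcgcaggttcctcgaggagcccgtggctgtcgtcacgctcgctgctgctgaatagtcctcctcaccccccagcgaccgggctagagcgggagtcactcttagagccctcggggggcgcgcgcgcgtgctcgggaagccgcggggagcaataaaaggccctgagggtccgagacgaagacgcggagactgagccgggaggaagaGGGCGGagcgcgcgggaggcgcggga
Zbtb20 (chr16:43247034-43247283, plus strand, 1 of several starts of this gene): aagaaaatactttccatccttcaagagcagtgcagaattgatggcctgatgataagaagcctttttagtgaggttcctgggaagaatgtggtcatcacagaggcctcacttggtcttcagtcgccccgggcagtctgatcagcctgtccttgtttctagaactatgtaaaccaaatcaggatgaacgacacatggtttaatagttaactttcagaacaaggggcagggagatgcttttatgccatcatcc
Iyd (chr10:3540024-3540273, plus strand): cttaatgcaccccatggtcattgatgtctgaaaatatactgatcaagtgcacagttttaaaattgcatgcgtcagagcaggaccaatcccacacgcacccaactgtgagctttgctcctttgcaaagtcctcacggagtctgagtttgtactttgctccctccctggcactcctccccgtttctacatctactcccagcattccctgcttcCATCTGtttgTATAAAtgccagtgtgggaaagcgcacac

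The motifs searched, on both strands, were TATAAA (bound by TBP), ATTTGCAT (the octamer of POU factors), CAGATG (an E-box of basic helix-loop-helix factors), TGACGTCA (the cyclic AMP response element) and GGGCGG (bound by Sp1). The last of these was in 4 of the 6 promoters (Fibcd1, Wfs1, Bok and Hs3st4) and in 32.7% of 32851 promoters of the same length. CAGATG was in those of Wfs1 and Iyd and in 14.4% of all. TATAAA was in that of Iyd, beginning 29 bases before the RefSeq start, and in 12.4% of all. The start of Iyd in the GENCODE annotation (chr10:3540240) lies upstream of this match, so the position holds for the RefSeq start only. The GENCODE start of Wfs1 (chr5:36989205, minus strand) also lies inside its window (chr5:36988983-36989232). Most of that window, with its CAGATG match, is thus within the annotated gene. The octamer and the cyclic AMP element were in none of the 6 and in 1.6% and 1.55% of all. No match overlapped another. The promoter of Fibcd1 was rich in G and C, at 71.6% (percentile 92.7 of all promoters), and those of Zbtb20 and Iyd held 44.8% and 48.4%, against a median of 52.4%. Hs3st4 had the highest content of the 6, at 82.0%.

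In fresh tissue, 9 of the 10 genes were higher in hippocampus than in cortex, and Wfs1 was slightly lower. The steepest were Spink8, Iyd and Fibcd1, which were close to undetected or low in cortex. Among all 14827 genes compared, 28.5% were called higher, 27.8% lower and 56.4% either way. Libraries of the tissues did not overlap for 10 of the 10 genes, as for 61.8% of all genes. The median log2 difference was 1.83 for the 10 genes. Tissue and deposited table cannot be told apart, since each tissue had a table of its own.

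Fibcd1 (ENSMUSG00000026841.7, GRCm38 chr2:31813290-31846005, minus strand) encodes a membrane receptor that binds acetylated sugars such as chitin. It was at 282, 282 and 279.5 CPM in the 3 fresh hippocampus libraries and at 19.2, 20.1 and 18.6 in fresh cortex. The groups lay far apart, with a log2 difference of 3.86 ± 0.04 (SE, n = 3 a group, edgeR quasi-likelihood test). Spink8 (ENSMUSG00000050074.12, chr9:109812280-109826633, plus strand), of the Kazal family of serine protease inhibitors, was at 19.8, 16.1 and 18.6 CPM in fresh hippocampus and 0.36, 0.83 and 0.42 in fresh cortex. That difference, 5.06 ± 0.17 on the log2 scale or 33.3-fold, was the largest of the 10 in fresh tissue.

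Wfs1 (ENSMUSG00000039474.13, chr5:36966104-36989205, minus strand) encodes wolframin, a membrane protein of the endoplasmic reticulum. Its 3 libraries of fresh hippocampus, at 139.7, 137 and 132 CPM, lay below those of fresh cortex, at 145, 144 and 150.0. The difference was small, -0.11 ± 0.04 (adjusted p = 0.011 by edgeR's quasi-likelihood test), and leaving out replicate 3 of fresh hippocampus (adjusted p = 0.133), replicate 2 or 3 of snap-frozen hippocampus, or replicate 3 of fresh cortex (0.109) ended the call. Wfs1 therefore did not separate hippocampus from cortex in these libraries in the way the other CA1 markers did. Pou3f1 (ENSMUSG00000090125.3, chr4:124656807-124660655, plus strand), a POU-domain transcription factor also known from myelinating Schwann cells, was at 67.3, 69.8 and 69.3 CPM in fresh hippocampus and 30.4, 33.2 and 31.2 in fresh cortex (log2 1.12). An antisense gene, Gm2164, overlaps its exon, and no source used here states how the counting treated strand; the same holds for Hs3st4 (Gm27040) and Zbtb20 (Gm9968).

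Zbtb20 (ENSMUSG00000022708.16, chr16:42875881-43642602, plus strand) encodes a zinc finger repressor that sets CA1 identity during development of the mouse hippocampus and is also made by astrocytes. It was at 59.1, 55.2 and 57.4 CPM in fresh hippocampus and 9.55, 10.3 and 10.1 in fresh cortex (log2 2.52 ± 0.07). Cpne7 (ENSMUSG00000034796.14, chr8:123117374-123135182, plus strand), a copine that binds phospholipid in the presence of calcium, was at 407, 399.9 and 405 CPM in fresh hippocampus and 52.8, 56.9 and 54.1 in fresh cortex (2.89 ± 0.03). Both genes were thus several-fold higher in hippocampus, with no overlap between libraries.

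Among the CA3 genes, Nptx1 (ENSMUSG00000025582.4, chr11:119538719-119547753, minus strand), a secreted pentraxin that gathers AMPA receptors at synapses, was at 779, 789 and 764 CPM in fresh hippocampus and 346, 354 and 362 in fresh cortex (log2 1.13). Bok (ENSMUSG00000026278.14, chr1:93685660-93695764, plus strand), a death-promoting relative of Bcl2, was at 94.3, 94.6 and 98.6 against 44.5, 44.4 and 41.8 CPM (1.14). Hs3st4 (ENSMUSG00000078591.1, chr7:123982869-124398989, plus strand), which adds sulfate to heparan sulfate chains, was at 144, 141 and 143 against 78.3, 77.3 and 69.9 CPM (0.92). These 3 genes had clear levels in cortex too, unlike Iyd. Iyd (ENSMUSG00000019762.4, chr10:3540240-3554877, plus strand), the deiodinase that recycles iodide from iodotyrosines in the thyroid, was low, at 4.48, 3.99 and 4.60 CPM in fresh hippocampus and 0.24, 0.59 and 0 in fresh cortex. In cortex its counts were 4, 10 and 0, close to the floor of 3 counts (0.17 to 0.192 CPM per library), so its log2 difference of 3.93 ± 0.30 is imprecise: it was 5.11 without replicate 2 and 3.37 without replicate 3 of fresh cortex.

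**Figure D1:**
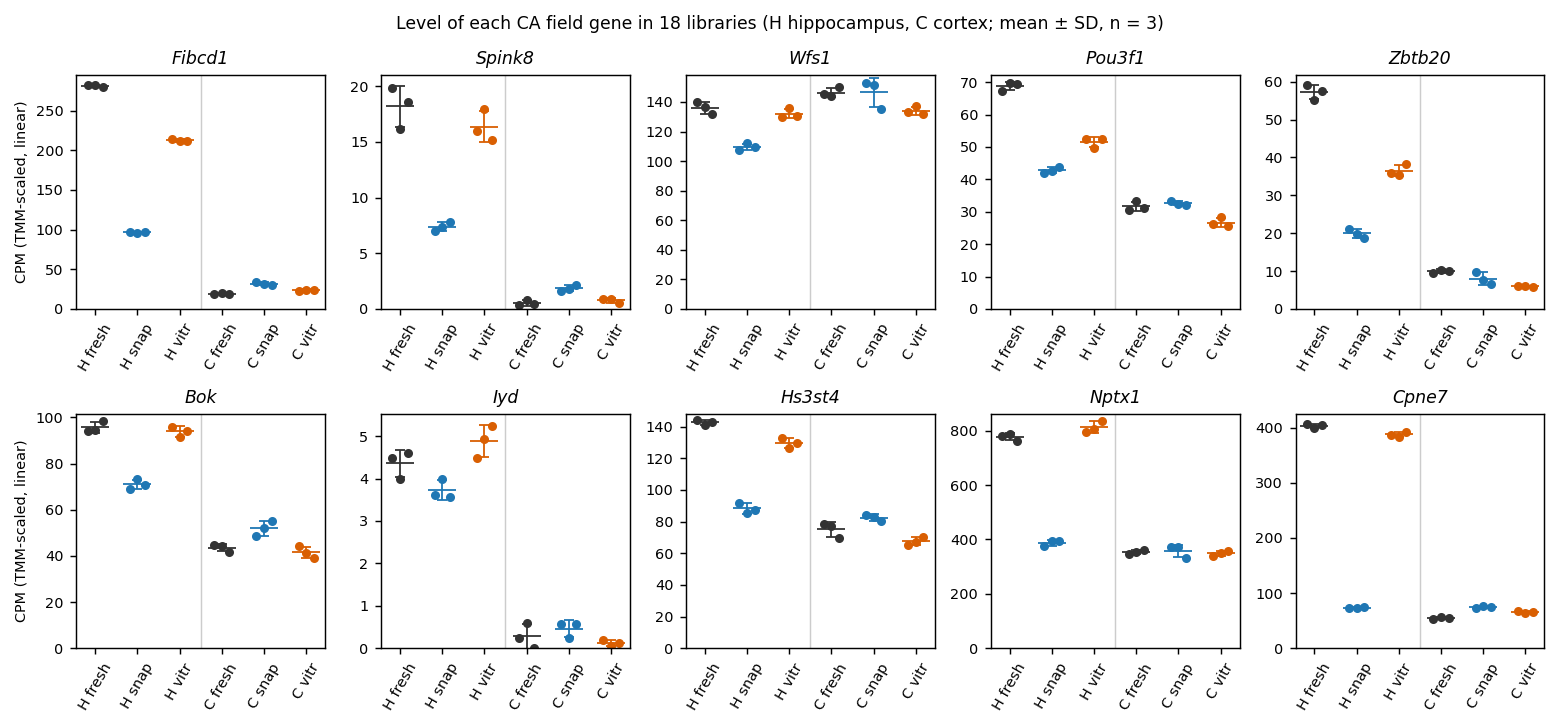
Level of each gene in CPM (linear axis from 0, a panel per gene) in the 6 groups; points are libraries and bars the mean ± SD (n = 3). Fibcd1, Spink8, Cpne7 and Zbtb20 stand high in fresh hippocampus and low in cortex, and in snap-frozen hippocampus Cpne7 lies at its level in snap-frozen cortex, 73.6 against 74.3 CPM.

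Per kilobase of the longest coding transcript (GENCODE M21), the order in fresh hippocampus was Cpne7 (168 CPM per kb), Nptx1 (149), Bok (65.3), Fibcd1 (59.1), Hs3st4 (44.7), Wfs1 (35.9), Spink8 (23.7), Pou3f1 (17.9), Iyd (2.76) and Zbtb20 (2.13). Coding transcripts of Zbtb20 range from 439 to 26901 bases, so its place in this order is uncertain. Other field genes also marked the fresh hippocampus libraries: 9 of 11 other CA3 genes, 9 of 12 CA2 genes, 5 of 7 other CA1 genes and 10 of 12 dentate granule genes were higher than in fresh cortex, and 12 of 15 cortical layer genes were lower.

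Some CA genes were at a lower level, as a share of the library, in vitrified than in fresh hippocampus, led by Zbtb20, Pou3f1 and Fibcd1. Of the 10 genes, 5 fell and 1 rose, where 25.3% of all 14528 genes tested fell and 23.8% rose (49.1% either way). Vitrified and fresh libraries did not overlap for 6 of the 10, as for 54.6% of all. The median log2 change was -0.11 over the 10 genes and 0.01 over all. The 2 CA1 genes that fell, the surface receptor Fibcd1 and the transcription factor Pou3f1, did so by 0.42 and 0.43 on the log2 scale, and the 4 CA3 genes lay between -0.15 and 0.15. In bulk tissue, fewer cells of a field and less RNA per cell cannot be told apart.

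Fibcd1 was at 214, 211 and 212 CPM in vitrified hippocampus, all below the 279.5 to 282 of fresh libraries (log2 -0.42 ± 0.02, adjusted p = 6.4e-20 by edgeR, as for the following p-values). Pou3f1 was at 52.6, 49.7 and 52.3 CPM against 67.3 to 69.8 (-0.43 ± 0.04, adjusted p = 1.4e-12). The groups did not overlap for either gene. Zbtb20, the repressor needed for CA1 identity, was at 35.9, 35.4 and 38.2 CPM against 55.2 to 59.1 (-0.66 ± 0.05, adjusted p = 2.9e-16), the largest change of the 10. Astrocytes also make Zbtb20, and the 15 astrocyte markers summed to 2375 to 2403 CPM in vitrified against 6482 to 6543 CPM in fresh hippocampus, with 15 of 15 lower; their part in the result was not tested.

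Spink8 and Wfs1, the other CA1 markers, did not pass the test. Spink8 was at 15.97, 17.96 and 15.2 CPM in vitrified and 16.1 to 19.8 in fresh hippocampus, overlapping groups with a log2 difference of -0.17 ± 0.08 (adjusted p = 0.075). Without replicate 2 of the fresh libraries it was -0.24 (adjusted p = 0.0142), and without replicate 2 of the vitrified ones -0.23 (0.0265). Wfs1 was at 130.1, 136 and 130.3 CPM in vitrified hippocampus, which also overlapped its fresh range (-0.06 ± 0.03, adjusted p = 0.12).

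Hs3st4 (133, 127 and 129.8 CPM, -0.15 ± 0.03, adjusted p = 5.6e-05) and Cpne7 (387, 383 and 393 CPM, -0.07 ± 0.02, adjusted p = 0.0036) fell by small amounts, with no overlap with fresh libraries. The call of Cpne7 ended when libraries were scaled by their totals alone (-0.02, adjusted p = 0.497). Nptx1 rose to 795, 808 and 837 CPM (0.05 ± 0.02, adjusted p = 0.037), a difference that DESeq2 did not call (adjusted p = 0.0807) and that was lost without replicate 3 of fresh (0.12) or of vitrified hippocampus (0.286). Bok (91.5 to 96.0 CPM, -0.04 ± 0.03) and Iyd (4.48 to 5.23 CPM, 0.15 ± 0.14) overlapped their fresh levels and did not pass.

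The other field lists moved in different directions after vitrification. Of 7 other CA1 genes, 5 were lower and 0 higher by edgeR (median -0.36), among them Mpped1, a predicted metallophosphoesterase (-0.41 ± 0.02), Gpr161, a receptor of the primary cilium (-0.43 ± 0.03), and Man1a, a mannosidase of the Golgi (-0.36 ± 0.03). Of 11 other CA3 genes, 4 were higher and 2 lower (median 0.01); Col6a1, a collagen chain, rose by 0.50 ± 0.04 and the repressor Trps1 changed by -0.27 ± 0.05. CA2 genes were 3 higher and 2 lower of 12 (median 0.01), with the growth factors Ntf3 at 0.67 ± 0.11 and Fgf2, which astrocytes also make, at -1.16 ± 0.12. Dentate granule genes were 11 higher of 12 (median 0.41), as C1ql2, a secreted synaptic organizer (0.57 ± 0.04), and Stxbp6, a binder of syntaxin (0.41 ± 0.03).

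Summed over their lists, other CA1 genes were at 535.6 to 548.1 CPM in vitrified against 678.8 to 692.5 CPM in fresh hippocampus, and dentate genes at 768.4 to 782.7 against 599.8 to 610.8. Other CA3 genes summed to 1028 to 1045 against 986.2 to 1008. The sums of other CA1 and dentate genes thus moved apart while that of other CA3 genes stayed close to its fresh level. Mpped1 alone was at 207.7 in vitrified against 273.7 CPM in fresh hippocampus (means). In cortex the other CA1 genes summed to 503 to 515.2 CPM in vitrified against 523.9 to 529.6 CPM in fresh libraries. There 2 of 7 were lower and 1 higher. In vitrified hippocampus, pan-excitatory genes were 2 higher and 1 lower of 8. Camk2a, a kinase of dendrites, changed by -0.58 ± 0.02, while the transcription factor Tbr1 changed by 0.22. Of 20 relatives of the 10 genes, 3 were higher and 8 lower, with Pou3f3, a second POU factor (-0.89 ± 0.03), and Nptx2, a second pentraxin (-0.87 ± 0.05), below fresh and Cpne6, a second copine (0.32 ± 0.02), above. Of other cell types, endothelial markers were higher for 10 of 10, and oligodendrocyte and microglial markers lower for 8 of 10 and 9 of 10; the part of these values in the results was not tested.

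In snap-frozen hippocampus nearly every CA gene was at a lower level, as a share of the library. Compared with fresh hippocampus, 9 of the 10 genes fell, where 30.7% of all genes tested fell and 31.5% rose (62.2% either way). All 10 log2 changes were negative, with a median of -0.83 against 0.01 over all genes. The copine Cpne7 fell 5.43-fold, Fibcd1 fell by 1.52 and Zbtb20 fell by 1.51 on the log2 scale, and Iyd was the 1 gene that did not pass.

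Cpne7 was at 73.8, 72.6 and 74.4 CPM in snap-frozen hippocampus against 399.9 to 407 in fresh (log2 -2.44 ± 0.03, adjusted p = 5.6e-49 by edgeR, as below). Fibcd1 was at 97.4, 95.8 and 96.9 CPM (-1.52 ± 0.03, adjusted p = 6.1e-41). Spink8 was at 6.98, 7.35 and 7.82 CPM (-1.28 ± 0.09, adjusted p = 3.3e-17). For these 3 genes the highest snap-frozen library lay below the lowest fresh one. Zbtb20 was at 21.2, 19.8 and 18.7 CPM (-1.51 ± 0.05, adjusted p = 1.2e-28), and astrocyte markers summed to 6038 to 6121 CPM here against 6482 to 6543 CPM in fresh, with 11 of 15 higher and 3 lower (median 0.32); their part in the result was not tested. Nptx1 was at 374, 395 and 393 CPM (-0.99 ± 0.02, adjusted p = 8.7e-37), close to its 346 to 362 CPM in fresh cortex.

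The others changed less. Hs3st4 was at 92.1, 85.6 and 87.4 CPM (-0.68 ± 0.03) and Pou3f1 at 42.0, 42.7 and 43.8 CPM (-0.67 ± 0.04). Bok was at 69.1, 73.1 and 70.7 CPM (-0.42 ± 0.04) and Wfs1 at 108, 112 and 109 CPM (-0.30 ± 0.03). None of the 9 genes overlapped its fresh range, as held for 65.2% of all genes tested. Iyd, at 3.60, 3.99 and 3.57 CPM, met it at its lowest fresh library (-0.21 ± 0.14, adjusted p = 0.19).

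**Figure D2:**
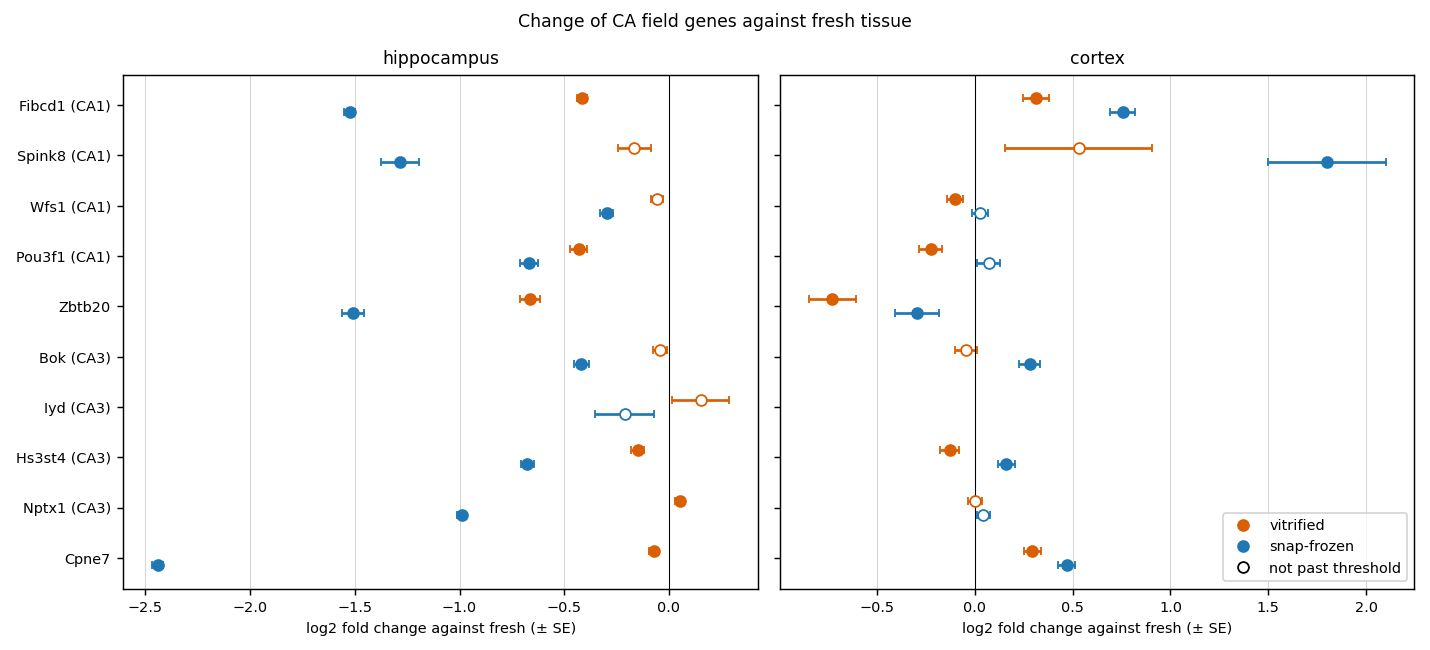
Log2 fold change against fresh tissue (± SE) for each gene, after vitrification and after snap freezing, in hippocampus (left) and cortex (right); open points did not pass the threshold and Iyd was too low to test in cortex. All 10 snap-frozen points lie below 0 in hippocampus, down to -2.44 for Cpne7, while in cortex 5 of 9 passed above 0.

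Genes shared by excitatory neurons fell in the same libraries, and those of inhibitory neurons moved both ways. Of 8 pan-excitatory genes 8 fell (median -0.96), among them the vesicular glutamate transporter Slc17a7 (-1.27), Camk2a (-0.99) and the calcium sensor Hpca (-0.95). Inhibitory neuron genes were 7 lower and 4 higher of 11 (median -0.50), with the neuropeptide gene Cck at -0.85 and Pvalb, a calcium buffer of fast-spiking cells (1.61), and Gad2, an enzyme of GABA synthesis (0.85), higher. Other CA1 genes were 6 lower of 7 (median -1.15), as Ccn3, a secreted matrix protein (-1.93 ± 0.04), and other CA3 genes 9 lower of 11 (median -0.83), as Dkk3, a secreted relative of Wnt inhibitors (-1.12 ± 0.02), Grik4, a kainate receptor subunit (-1.05 ± 0.04), and Col6a1 (-2.26 ± 0.06). Dentate granule genes were 9 lower of 12 (median -0.52) and CA2 genes 6 lower of 12 (median -0.28), with the calmodulin binder Pcp4 (1.11) and the calcium channel subunit Cacng5 (1.78) higher. Among relatives, Nptxr, the pentraxin receptor (-1.48 ± 0.03), Cpne6 (-1.04 ± 0.02) and Cpne2 (-1.64 ± 0.06) fell.

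Markers of other regions and cell types also moved in the same libraries. All 10 tested thalamic genes were higher (median 2.54), and the 11 listed summed to 599.7 to 633 CPM in snap-frozen against 86.09 to 93.15 CPM in fresh hippocampus. Tcf7l2, a transcription factor of thalamic neurons, was at 141 ± 7.70 CPM (mean ± SD, n = 3) against 4.60 ± 0.857, and Slc17a6, the glutamate transporter of thalamic relay neurons, at 271 ± 7.19 against 12.1 ± 0.334. Gbx2, a defining thalamic factor, was at 0 in every fresh and vitrified hippocampus library. It was not at 0 in all snap-frozen ones, but its level there is not given here. Striatal markers were higher for 7 of 11 (423.8 to 439.7 against 240.7 to 246 CPM summed) and oligodendrocyte markers for 10 of 10 (median 0.63). Endothelial markers were higher for 10 of 10 (median 1.17) and astrocyte markers for 11 of 15, and microglial markers were lower for 8 of 10 (median -0.26). The part of these markers in the lower level of the CA genes was not tested, and tissue composition and snap freezing cannot be told apart in these libraries.

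Against Slc17a7, a transcript that most forebrain excitatory neurons share, the CA genes did not move as 1 block. Slc17a7 itself was at 1749 ± 5.48 CPM in fresh, 1764 ± 6.53 in vitrified and 716 ± 5.93 in snap-frozen hippocampus. Counts of Cpne7 were 23.1% of those of Slc17a7 in fresh and 10.3% in snap-frozen tissue, so Cpne7 stood lower also by this measure. Those of Spink8 were 1.04% and 1.03%, and of Fibcd1 16.1% ± 0.119 and 13.5% ± 0.157. The proportion was higher in snap-frozen tissue for Wfs1 (7.78% to 15.3%), Bok (5.48% to 9.91%), Iyd (0.249% to 0.52%), Pou3f1 (3.93% to 5.98%), Hs3st4 (8.16% to 12.3%) and Nptx1 (44.4% to 54.1%). Zbtb20 was at 3.27% in fresh and 2.78% in snap-frozen tissue. In vitrified tissue Fibcd1 (12.1% ± 0.11), Pou3f1 (2.92%), Zbtb20 (2.07%), Hs3st4 (7.36%) and Cpne7 (21.8% to 22.2%) stood below fresh with no overlap of libraries. Slc17a7 fell by -1.27 in snap-frozen hippocampus, more than the median of the 8 pan-excitatory genes (-0.96). The snap-frozen proportions therefore depend on the choice of Slc17a7 as reference. All these proportions are given as values, with no test.

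**Figure D3:**
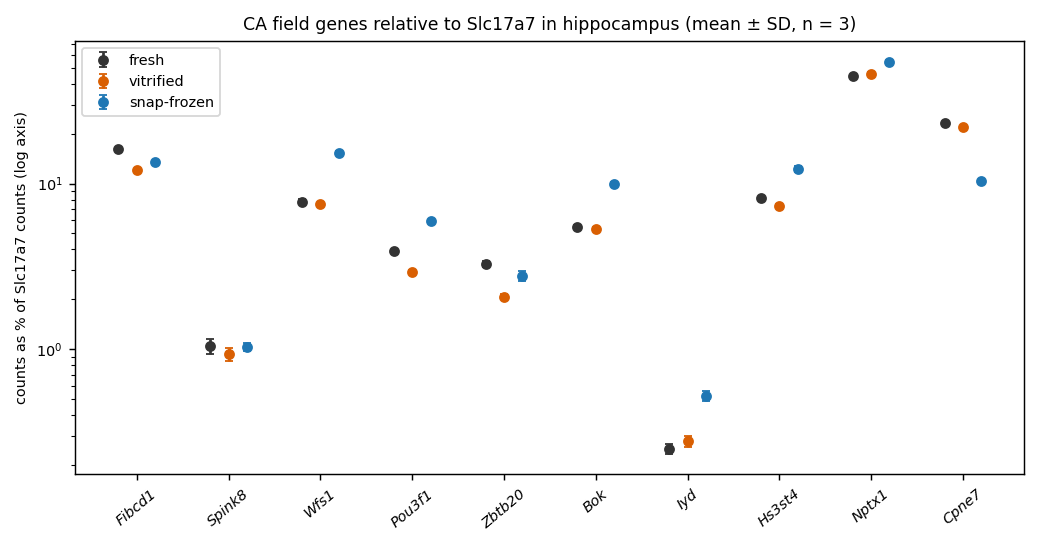
Counts of each gene as a percentage of Slc17a7 counts in hippocampus (log axis; points are means, bars SD, n = 3 libraries). In snap-frozen tissue Cpne7 lies lower than in fresh, 10.3% against 23.1%, and Wfs1 higher, 15.3% against 7.78%.

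**Figure D4:**
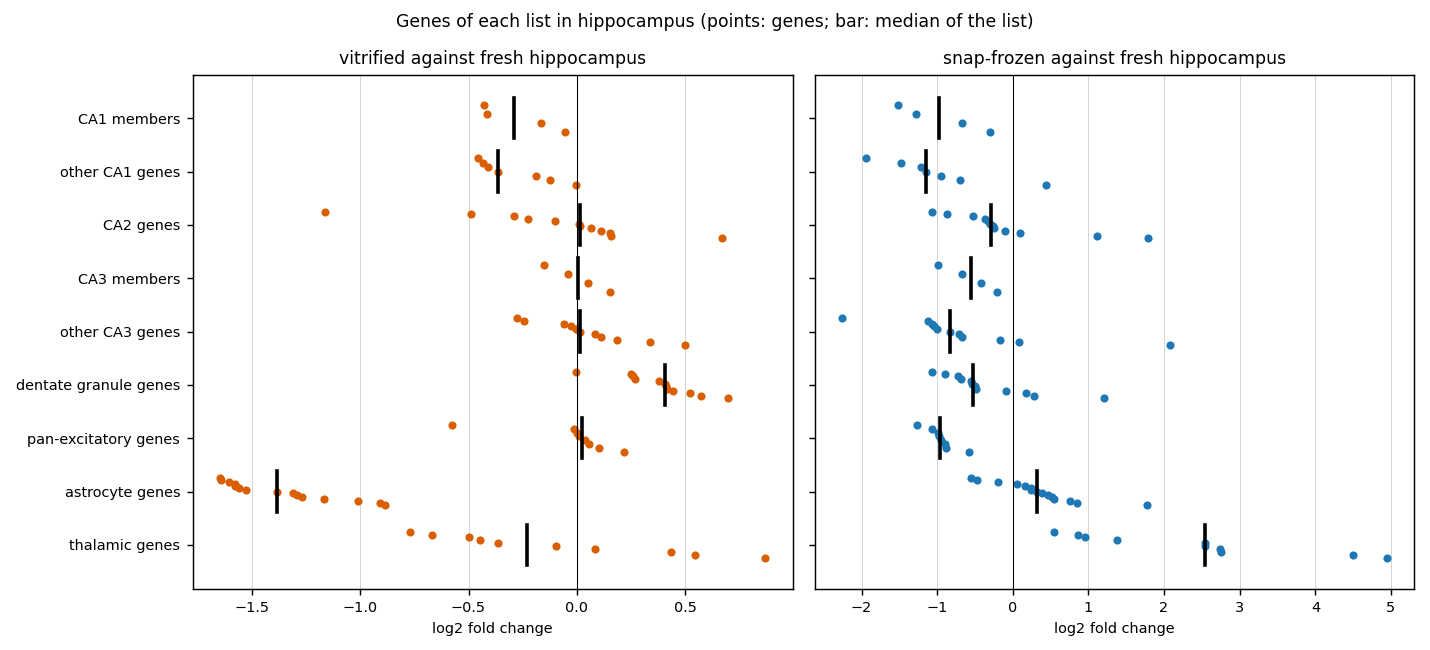
Log2 fold change of the tested genes of the field and marker lists in hippocampus, after vitrification (left) and after snap freezing (right); points are genes and bars the median of a list. Astrocyte genes lie low after vitrification (median -1.38), and thalamic genes high (2.54) and other CA1 genes low (-1.15) after snap freezing.

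Set directly against each other, vitrified hippocampus was higher than snap-frozen hippocampus for all 10 genes, where 33.8% of all genes were higher (67.8% called either way). The libraries did not overlap for any of the 10, as for 69.9% of all genes. The median log2 difference was 0.69, from 2.37 for Cpne7, 1.12 for Spink8 and 1.11 for Fibcd1 to 0.24 for Wfs1 and Pou3f1. Iyd, at 0.36 ± 0.14 (adjusted p = 0.0197 by edgeR), lost its call with DESeq2 (0.0937), with library totals (0.055) and without replicate 3 of vitrified (0.0793), or replicate 1 (0.051) or 3 (0.0593) of snap-frozen hippocampus. This comparison shares its libraries with both comparisons against fresh tissue.

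The same genes were followed in cortex, where they mark no CA field. Of the 10 genes 9 were tested, since Iyd was too low, at 0 to 0.59 CPM over the 9 libraries. In vitrified against fresh cortex 2 rose and 4 fell, where 23.2% of all 14470 genes rose and 17.3% fell (40.5% either way). Fibcd1 rose from 18.6 to 20.1 CPM in fresh to 22.4, 23.9 and 24.4 CPM in vitrified cortex (log2 0.31 ± 0.07, adjusted p = 0.00039 by edgeR). Cpne7 rose to 66.8, 64.6 and 66.2 CPM (0.29 ± 0.04, adjusted p = 2.7e-06). Both genes thus moved opposite to hippocampus, with no overlap, though the small fall of Cpne7 in hippocampus was not called with library totals.

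Zbtb20 fell in vitrified cortex as in vitrified hippocampus, to 5.97, 5.97 and 5.87 CPM (log2 -0.73 ± 0.12, adjusted p = 1.3e-05). Astrocyte markers were lower for 15 of 15 (median -0.85, summing to 3714 to 3782 against 6739 to 6801 CPM), and their part in this result was not tested. Pou3f1 fell to 26.1, 28.3 and 25.5 CPM (-0.22 ± 0.06, adjusted p = 0.0032). Hs3st4 (-0.13 ± 0.05, adjusted p = 0.026) and Wfs1 (-0.10 ± 0.04, adjusted p = 0.042) passed narrowly: library totals ended both calls (0.0512 and 0.0802), as did leaving out replicate 1 or 2 of either group for Hs3st4, and any fresh library or replicate 1 or 3 of the vitrified ones for Wfs1. Spink8 (0.53 ± 0.37), Bok and Nptx1 overlapped their fresh levels, as did Hs3st4 despite its call. Groups did not overlap for 5 of the 9 genes, against 52.5% of all.

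In snap-frozen against fresh cortex 5 of the 9 rose and 1 fell, where 16.4% of all genes rose and 17.6% fell (34% either way). Spink8 was at 1.60, 1.79 and 2.18 CPM against 0.36 to 0.83 (log2 1.80 ± 0.30, adjusted p = 2.9e-05 by edgeR). Fibcd1 was at 33.6, 32.0 and 30.4 CPM (0.76 ± 0.06, adjusted p = 2.5e-10) and Cpne7 at 72.8, 75.7 and 74.3 CPM (0.47 ± 0.04, adjusted p = 1.3e-09). Every snap-frozen library of these 3 genes lay above every fresh one; groups did not overlap for 5 of the 9 genes and for 43.9% of all. Bok (0.28 ± 0.05) and Hs3st4 (0.16 ± 0.04, adjusted p = 0.0054) also rose; the call of Hs3st4 ended without replicate 3 of fresh cortex (0.0719).

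Zbtb20 was at 9.74, 7.74 and 6.53 CPM in snap-frozen cortex, a range that overlapped fresh cortex (-0.30 ± 0.11, adjusted p = 0.039). That call ended with DESeq2 (0.108), with only both groups in the fit (0.0556), without any 1 of the fresh libraries, and without replicate 2 or 3 of the snap-frozen ones (-0.17, adjusted p = 0.259, without replicate 3). Astrocyte markers were lower for 11 of 15 and higher for 1 (median -0.17, summing to 5645 to 5897 against 6739 to 6801 CPM in fresh cortex), and their part in the value of Zbtb20 was not tested. Wfs1, Pou3f1 and Nptx1 did not pass, though Nptx1 did without replicate 3 of snap-frozen cortex, the library that stood apart (0.10, adjusted p = 0.00221), as did Wfs1 (0.08, adjusted p = 0.0403). Genes of the dentate gyrus, which cortex lacks, were also higher in snap-frozen cortex, 6 of 12 with 1 lower (median 0.45): Dsp, a desmosome protein, by 2.87 ± 0.24, C1ql2 by 1.92 ± 0.15, the lactase gene Lct by 1.60 ± 0.20 and Prox1, the transcription factor of granule cells, by 0.68 ± 0.08. The 12 dentate genes summed to 215.1 to 220.3 CPM in snap-frozen against 196.6 to 203.3 CPM in fresh cortex. They summed to 214 to 222.4 CPM in vitrified cortex, where 3 of 12 were higher and 0 lower (median 0.11). Of other CA1 genes, 4 of 7 were higher in snap-frozen cortex. Choroid plexus genes were lower there for 10 of 10, at a summed mean of 443.1 against 779.5 CPM in fresh cortex. Striatal genes were lower for 10 of 11, at 1705 against 2112 CPM. The part of these markers in the higher Spink8, Fibcd1 and Cpne7 was not tested.

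Between vitrified and snap-frozen cortex, 8 of 9 genes were lower in the vitrified libraries, where 24.2% of all genes were lower (49.6% either way). The log2 differences ran from -1.27 for Spink8 and -0.44 for Fibcd1 to -0.13 for Wfs1, and Nptx1 did not pass. Groups did not overlap for 7 of the 9, as for 54.6% of all. Without replicate 3 of snap-frozen cortex Nptx1 passed at -0.09 (adjusted p = 0.00165 by edgeR). The call of Wfs1 ended without replicate 1 (0.0575) or 2 (0.0508) of snap-frozen cortex and that of Zbtb20 without replicate 1 (0.0757).

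The difference between snap-frozen and fresh libraries was not the same in both tissues for most of these genes. Tested as an interaction over the 18 libraries, 9 of the 10 genes had a lower log2 change in hippocampus than in cortex, where 26.6% of all genes had a lower effect in hippocampus (55% either way). The differences of log2 changes, hippocampus minus cortex, were -3.07 for Spink8, -2.90 for Cpne7, -2.27 for Fibcd1 and -1.20 for Zbtb20. They were -1.02 for Nptx1, -0.83 for Hs3st4, -0.73 for Pou3f1, -0.69 for Bok and -0.31 for Wfs1. Thalamic transcripts stood higher in snap-frozen hippocampus and 6 of 12 dentate genes in snap-frozen cortex. In snap-frozen cortex 10 of 10 choroid plexus genes and 10 of 11 striatal genes stood lower. Tissue composition and snap freezing therefore cannot be told apart in these values. Iyd did not pass (-0.93 ± 0.54, adjusted p = 0.14 by edgeR), but did with limma-voom (-1.63, adjusted p = 0.0251) and without replicate 2 of fresh cortex (-2.08, 0.00816). For vitrification, 2 of the 10 differed, Fibcd1 (-0.69 ± 0.07, adjusted p = 1.3e-10) and Cpne7 (-0.33 ± 0.05, adjusted p = 9.5e-07), where 7.01% of all genes had a lower effect in hippocampus and 5.89% a higher one (12.9% either way).

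The gap between the tissues was smaller after snap freezing. In snap-frozen tissue 8 of the 10 genes were still higher in hippocampus and Wfs1 was lower, where 35.7% of all genes were higher and 30.8% lower (66.5% either way), but the median log2 difference was 0.42 against 1.83 in fresh tissue. Fibcd1 was at 1.59, Spink8 at 1.99 and Zbtb20 at 1.32, Nptx1 at 0.11 (adjusted p = 0.0016 by edgeR) and Wfs1 at -0.42. Cpne7 no longer separated the tissues: its libraries overlapped at 72.6 to 74.4 CPM in hippocampus and 72.8 to 75.7 CPM in cortex (-0.01 ± 0.04, adjusted p = 0.76). The tissues did not overlap for the other 9 genes, as for 67.4% of all. Hs3st4 passed narrowly (0.10, adjusted p = 0.027) and did not with DESeq2 (0.0702), with only both groups in the fit (0.0899), or without replicate 1 or 3 of snap-frozen hippocampus.

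In vitrified tissue 9 of the 10 were higher in hippocampus, where 28.5% of all genes were higher (57.1% either way), with a median of 1.89. Iyd (5.21 ± 0.35, on 1 to 3 counts per cortex library), Spink8 (4.40), Fibcd1 (3.17), Zbtb20 (2.62) and Cpne7 (2.56) kept the widest gaps. Wfs1 overlapped between the tissues (-0.02); the other 9 genes did not, as for 61.9% of all.

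**Figure D5:**
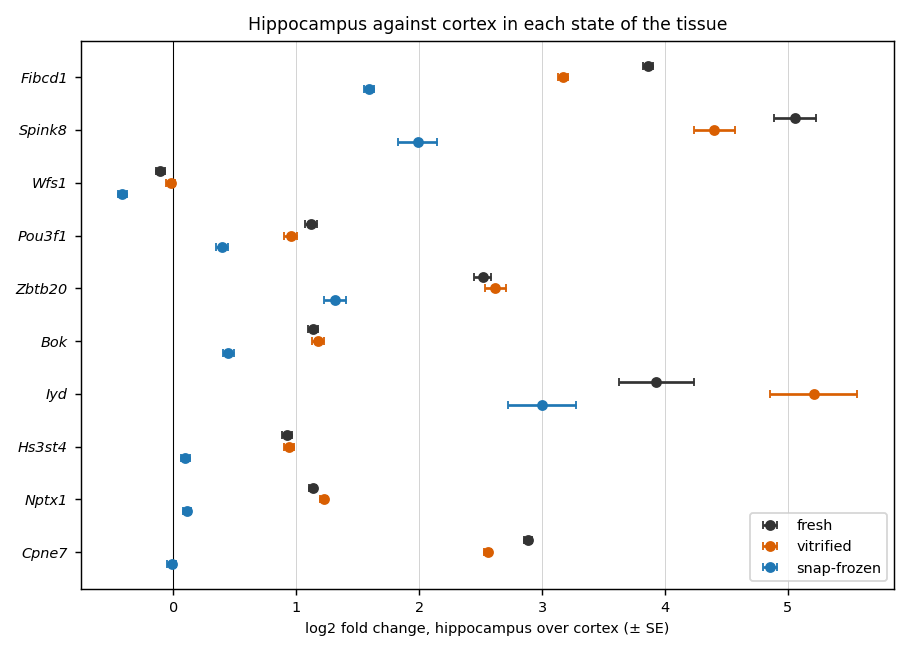
Log2 fold change of hippocampus over cortex (± SE) in fresh, vitrified and snap-frozen tissue for the 10 genes. The snap-frozen point lies below the fresh point for every gene, as 1.59 against 3.86 for Fibcd1 and -0.01 against 2.89 for Cpne7.

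For Fibcd1 and Iyd the genes with the nearest pattern were sought among 12235 genes, by the root mean square difference of centred log2 group means over the 6 groups. Nearest to Fibcd1 were Olfml2b (0.15), at 60.9 CPM in fresh, 57.4 in vitrified and 28.9 in snap-frozen hippocampus and 4.86 in fresh cortex, Shisa6 (0.176), an auxiliary protein of AMPA receptors, and Pkp2 (0.203), a desmosome protein. Nearest to Iyd were Vwa3b (0.162), Prox1 (0.183), the dentate granule factor, and Klk8 (0.198), a secreted protease. Prox1 was at 118 CPM in fresh, 141 in vitrified and 80.0 in snap-frozen hippocampus and 14.6 in fresh cortex. The cortex means of Iyd lay below the 0.5 CPM added before taking logs, which shrinks its gap between tissues, so its neighbours depend on that constant.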

How the data were processed

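Poly(A) RNA of 18 libraries was sequenced strand-specifically on a DNBSEQ instrument, per the labels' protocols. The submitters' processing notes name HISAT2 2.0.4 and the build GRCm38.p6. The counter, its strand setting and the annotation stand in no source used here. The authors deposited expected counts per gene, 1 table per tissue; 4.39% to 5.16% of a library's values were not whole (0 of those of the 10 genes), and values were rounded.

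edgeR 4.0.16 (R 4.3.3) was fitted with TMM scaling, its expression filter by group and the quasi-likelihood test, to the 9 libraries of a tissue (14528 genes in hippocampus, 14470 in cortex), or to all 18 for differences between tissues and interactions (14827 genes). Benjamini-Hochberg adjustment ran over all genes tested, with a threshold of 0.05. SEs come from the F statistic. The test was tried on simulated counts. Nearest patterns used log2(CPM + 0.5) and genes of at least 5 CPM in any group.

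The 10 genes and all lists were chosen with earlier results of these data known. Named were the 10 genes and, from each list, up to 3 called genes with the smallest p per hippocampal comparison against fresh; the dentate genes named in cortex, Gbx2 and the other list genes outside this rule were chosen after their values were seen. Alternatives were RLE factors, library totals, other filters (none, or 1 CPM in 3 or more libraries), limma-voom (limma 3.58.1), DESeq2 1.42.0, only the compared groups, a replicate block, and each library left out. Intervals of counts were not computed, and the floor of 3 counts covers counting error only.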

Additional observations from a re-analysis of the deposited data

Results flagged for a closer look

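The change from fresh to preserved libraries differed between the tissues for 9 of the 10 genes after snap freezing and for 2 after vitrification, by the interaction test of edgeR. Among all genes tested, 55% differed after snap freezing and 12.9% after vitrification. After snap freezing the difference of log2 changes, hippocampus minus cortex, was -3.07 for Spink8, -2.90 for Cpne7, -2.27 for Fibcd1, -1.20 for Zbtb20, -1.02 for Nptx1, -0.83 for Hs3st4, -0.73 for Pou3f1, -0.69 for Bok and -0.31 for Wfs1. Spink8, Fibcd1 and Cpne7 had opposite signs in the tissues, with log2 changes of -1.28, -1.52 and -2.44 in hippocampus and 1.80, 0.76 and 0.47 in cortex. After vitrification the difference was -0.69 for Fibcd1 and -0.33 for Cpne7, again with opposite signs, -0.42 and -0.07 in hippocampus against 0.31 and 0.29 in cortex. The small fall of Cpne7 in hippocampus was not called with library totals (-0.02, adjusted p = 0.497 by edgeR). Thalamic transcripts were higher in the same snap-frozen hippocampus libraries, and 6 of 12 dentate genes in snap-frozen cortex. Tissue composition and snap freezing therefore cannot be told apart there. In vitrified cortex 3 of 12 dentate genes were higher. Choroid plexus genes were lower for 10 of 10 in vitrified and in snap-frozen cortex. Their summed means were 257.4 and 443.1 CPM, against 779.5 CPM in fresh cortex. Striatal genes were lower for 10 of 11 in snap-frozen cortex, and 4 were lower and 2 higher in vitrified cortex. The part of all these markers in these values was not tested.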

How the results depend on the processing

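The number of the 10 genes called stayed within 1.5 times its value in all 11 comparisons under every alternative run. For vitrified against fresh hippocampus it was 5 to 7 (6 as reported) and for snap-frozen against fresh hippocampus 9 throughout. With a library left out, it was 4 to 6 in vitrified against fresh cortex (2 higher and 4 lower as reported). It was 4 to 7 in snap-frozen against fresh cortex (5 and 1) and 6 to 9 in vitrified against snap-frozen cortex (0 and 8). Of single-gene values, 2167 kept direction and side of the threshold, 40 lost and 7 gained a call, and 35 turned sign, all of them small; the cause was not tested. With library totals Bok was at 0.012 in vitrified against fresh hippocampus. Nptx1 in vitrified against fresh cortex was at -0.020 with RLE factors, -0.023 without a filter, -0.020 with DESeq2, -0.024 with only both groups in the fit, and -0.015 to 0.022 with a library left out. Wfs1 in snap-frozen against fresh cortex ran from -0.0042 to 0.082 with a library left out. Cpne7 between snap-frozen tissues was at 0.058 with totals, 0.013 without a filter, 0.017 with the filter of 1 CPM, and -0.035 to 0.033 with a library left out. In the vitrification interaction Bok ran from -0.0046 to 0.080 and Hs3st4 from -0.021 to 0.061 with a library left out.

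No pairing by replicate number was seen. For this, the group mean of each gene was subtracted and the remainders were correlated between libraries of different groups. Same-numbered libraries gave -0.0428 to 0.0442 in hippocampus and -0.0894 to 0.0577 in cortex. Unlike-numbered ones gave -0.0731 to 0.0521 and -0.0573 to 0.127. Most replicate pairs lay near counting noise, so these low values cannot exclude a pairing. With the replicate block Cpne7 between snap-frozen tissues was at 0.017, and Hs3st4 at 0.08 (adjusted p = 0.17 by edgeR). In that fit each tissue was represented by a single baseline replicate, and the baseline replicate differed between the tissues. These values are therefore not a test of the tissue means adjusted for replicate. Library totals moved the split of all genes: 4806 higher and 2835 lower in vitrified against fresh hippocampus (3463 and 3672 as reported), 6784 and 2867 in snap-frozen against fresh (4578 and 4458, with a shift of the median of 0.119), 6327 and 3555 between snap-frozen tissues (5291 and 4574), and 5550 and 2649 in the snap-freezing interaction (4202 and 3950, shift 0.106). Depth limits Iyd in cortex and Spink8 in fresh and vitrified cortex, at a few counts per library.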
